A study of Homo sapiens with 12 samples.

Results

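A set of 77 genes that encode proteins of the cytoplasmic ribosome was followed in HCT116 cells, an established colorectal cancer line, by RNA-Seq. They were chosen by symbol (RPL or RPS with a number and, at most, a final A or X, and RPLP0, RPLP1, RPLP2 and RPSA) and by a minimum of 20 counts in at least 1 library. All 77 matching symbols passed, out of 60580 genes listed and 16123 genes with that minimum; 46 encode proteins of the large and 31 of the small subunit. *WT* cells and cells with CRISPR/Cas9 deletions of the *miR-34a* and *miR-34b/c* loci (*miR-34a/b/c-KO*, below *KO*) received 5-FU (4 µM), an antimetabolite of colorectal cancer therapy, or the solvent DMSO for 48 h. According to the study's methods, both genotypes were lines derived from single cells, *WT* after transfection of a Cas9 plasmid without guide RNA, with several clones per genotype. Which clones gave the 12 libraries is not given in the sources used here, so p-values measure only the spread between these libraries. The counts labelled *WT* 5-FU replicate 1 were those of *WT* DMSO replicate 3, with 0 of 60580 genes differing, and were left out, so that 11 libraries remained (*WT* DMSO 3, *WT* 5-FU 2, *KO* DMSO 3 and *KO* 5-FU 3).

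Each ribosome holds 1 copy of nearly every ribosomal protein, and cells produce these proteins in matched amounts. Their mRNAs are short and abundant, and most begin with a 5′ terminal oligopyrimidine (TOP) tract, a C followed by further pyrimidines, through which mTOR and LARP1 control their translation and storage. 5-FU can enter ribosomal RNA and disturb ribosome assembly. Unassembled RPL5 and RPL11 then bind MDM2, a ubiquitin ligase, together with 5S ribosomal RNA. *miR-34a* and *miR-34b/c* are activated in the stress response that follows, and their products silence mRNAs that carry a match to their seed.

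The sequences at the annotated start of transcription are shown for the genes on which the results turn, since the TOP tract begins there. RefSeq (GRCh38.p14) gave 62 of the 77 genes. A tract was taken as a C followed without a break by C or T, beginning within 10 bases of the annotated start on the gene's strand, and the longest was used. A tract of at least 8 bases was found in 45 of 62 ribosomal protein genes (72.6%), in 1069 of 11115 other genes tested (9.62%) and in 9.17% of all 35116 promoters of the same length. It was found in 3 of 69 mitochondrial ribosomal protein genes (4.35%). Below, 15 bases on each side of the annotated start are printed 5′ to 3′, the first transcribed base being the 16th, with the tract in capitals. *RPL10A* (chr6:35468386-35468415, plus strand), *RPL3* (chr22:39319609-39319638, minus strand) and *RPL12* (chr9:127451392-127451421, minus strand) are shown as the genes that fell most after 5-FU. Next to them stand *RPS19* (chr19:41860240-41860269, plus strand) as the one that rose most in *WT* cells, *RPL11* (chr1:23691764-23691793, plus strand) as a partner of MDM2, and *RPL7A* (chr9:133348203-133348232, plus strand) as the one that was higher in *KO* cells under both treatments.
RPL10A: tgcgcaagacatgctagtCTCTTTTCCggt
RPL3: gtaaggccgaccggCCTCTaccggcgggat
RPL12: ccgcgcgatttccggCCTCTCggctttcgg
RPS19: ggaaaccccgtcgttCCCTTTCCCCTggct
RPL11: cgcctcctggcccataaggCCCTCggccgg
RPL7A: ccacaattCCCTTTCCTTTCTCTCTCCTCC
The tract was 5 bases long in *RPL3*, 6 in *RPL12* and 9 in *RPL10A*, 11 in *RPS19* and 23, running past the printed window, in *RPL7A*; the median was 10 over the 62 genes and 4 over the other genes tested. *RPL11* was annotated with a start at which only 5 such bases stand. These are matches of letters and no measurement of where transcription began.

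The deleted miRNAs were compared with the 3′ untranslated regions of the same mRNAs, since loss of a miRNA acts first on mRNAs with a seed match. The mature 5p strands given by RefSeq (GRCh38.p14) are printed with the seed, bases 2 to 8, in capitals. That of hsa-miR-34c-5p, which the deletion also covers, is not shown here.
hsa-miR-34a-5p (chr1:9151735-9151756, minus strand): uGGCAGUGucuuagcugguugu
hsa-miR-34b-5p (chr11:111512950-111512972, plus strand): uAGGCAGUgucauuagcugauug
The seeds of both share the letters GGCAGU, shifted by 1 base. The site that pairs with the seed of miR-34a-5p, CACTGCC, was found in the annotated 3′ untranslated region of 7 of 77 ribosomal protein mRNAs (9.09%), against 2296 of 13031 other genes tested (17.6%). The median length of that region was 112 bases in the 77 mRNAs and 1287 bases in the others. The 7 mRNAs (*RPL13A*, *RPL28*, *RPL31*, *RPL32*, *RPL37A*, *RPL38* and *RPS23*) were annotated with regions of 493 to 3753 bases. None of them was among the members called higher in *KO* cells, which were only 5 of 77 in DMSO and 1 of 77 in 5-FU. With so few such members, this cannot show whether a seed match made a difference.

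Values are CPM, the counts of a gene relative to the scaled total of its library, with upper-quartile factors. A CPM is a share of a library, so that a fall of 1 group of mRNAs and a rise of the remaining RNA per cell cannot be told apart. Total counts were 22831415 to 39064210 per library. Fold changes are log2 values ± SE from the quasi-likelihood test of edgeR, in 1 model of the 4 groups, with Benjamini-Hochberg adjustment over all 16123 genes (FDR), and a gene was called at FDR < 0.05. The comparisons share libraries, so that their values are given side by side and are not independent. Of the 9 colon epithelial markers, *EPCAM*, *CDH1*, *KRT8*, *KRT18*, *KRT19* and *CDX2* were present in every library, *VIL1* had 0 to 53 counts, *KRT20* 30 to 277 and *CDX1* was at 0. Of the 10 markers of other cell types, *PTPRC*, *CD3E*, *PECAM1*, *COL3A1*, *DCN*, *HBB* and *ALB* had at most 9 counts, while *CD68* had 420 to 1398, *COL1A1* 492 to 2311 and *VWF* 22 to 236. The summed epithelial markers ranged from 5170 to 5309 CPM in *WT* DMSO, 11114 to 12044 in *WT* 5-FU, 5458 to 5555 in *KO* DMSO and 8973 to 9478 in *KO* 5-FU libraries. Those of other cell types ranged, in the same order, from 40.7 to 43.7, 88.6 to 101, 65.3 to 69.0 and 110 to 112 CPM. Their part in the results was not tested.

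Ribosomal protein mRNAs took 7.18, 7.80 and 7.11% of all counts in *WT* DMSO libraries, 7.12 and 6.72% in *WT* 5-FU, 7.04, 7.61 and 7.87% in *KO* DMSO and 6.05, 6.15 and 5.78% in *KO* 5-FU libraries. The 3 *KO* 5-FU libraries lay below all others. The *WT* 5-FU libraries overlapped with the DMSO libraries of both genotypes. The means were 7.36% ± 0.379 (SD, n = 3), 6.92% ± 0.285 (n = 2), 7.51% ± 0.425 (n = 3) and 5.99% ± 0.193 (n = 3), in the same order. In both subunits the *KO* 5-FU libraries lay lowest. Large-subunit mRNAs took 4.50 to 5.01% and small-subunit mRNAs 2.54 to 2.86% in *KO* DMSO libraries. After 5-FU these shares were 3.63 to 3.87% and 2.15 to 2.28%. In *WT* 5-FU libraries, large-subunit mRNAs took 4.44 and 4.19%, below every DMSO library of both genotypes. Small-subunit mRNAs took 2.68 and 2.53% there and overlapped with the DMSO libraries. The ratio of small- to large-subunit counts was 0.564 to 0.573 in the 6 DMSO libraries, 0.603 to 0.605 in *WT* 5-FU and 0.591 to 0.592 in *KO* 5-FU libraries. In this ratio, DMSO and 5-FU libraries did not overlap in either genotype.

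Individual mRNAs differed widely in level. The mean over the 11 libraries ran from 146 CPM for *RPS28* to 3243 CPM for *RPLP0*, the base of the ribosomal stalk. Per kilobase of the annotated canonical transcript, *RPS2* had the highest level (3212 CPM per kilobase), followed by *RPLP0* (2935), and *RPL37* the lowest (49.0). The transcript annotated for *RPL37* is 7573 bases long with a coding part of 291 bases. Per kilobase of coding length its level was 1276, that of *RPL41* (coding length 75 bases) was highest at 13299 and that of *RPL34* lowest at 650. The order of the levels per length therefore depended on the annotated length. Counts on rows named as pseudogenes of these genes were few, 0.537 to 0.954% of the counts on the genes themselves. They came to 11.2% of the counts of *RPS2*, nearly all on *RPS2P5*, and to 10.9% of those of *RPL23A*. The levels of these genes are therefore uncertain, and how far their reads and those of pseudogenes were mixed was not measured. Read-through genes that overlap members had far fewer counts, 547 to 1649 for *RPS10-NUDT3* against 11523 to 23411 for *RPS10*.

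The mRNAs moved together between replicates. In *WT* DMSO replicate 2, 76 of 77 lay above the mean of their group, in *KO* DMSO replicate 3 also 76, and in *KO* DMSO replicate 1 none. The median deviation was 0.11 and 0.095 for the first 2 and -0.12 for the third on the log2 scale. The 77 tests of a comparison are thus not independent of each other.

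In *WT* cells, ribosomal protein mRNAs fell after 5-FU in a share above that of all genes and below that of other abundant genes. In the *WT* comparison of 5-FU and DMSO, 28 of 77 fell and 2 rose (36.4 and 2.60%), beside 28.3% of all 16123 genes that fell and 31.9% that rose. Of the 2247 other genes of at least 100 CPM, 44.7% fell and 29.9% rose, and of the 636 of these with a coding length under 1000 bases 50.2% fell and 25.2% rose. The median log2 fold change was -0.081, against 0.034 for all genes, -0.089 for the other abundant genes and -0.14 for the short ones among them. An absolute fold change above 1.5 was reached by 2 members, both lower, whereas 27.8% of all genes passed this limit in either direction. Without 1 library, 20 to 32 members fell; the 2 that rose became 9 without *WT* 5-FU replicate 3 and 1 without *WT* 5-FU replicate 2, *WT* DMSO replicate 1 or *WT* DMSO replicate 3.

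The largest falls in *WT* cells were those of 3 large-subunit mRNAs. *RPL10A*, whose protein lies at the mobile stalk opposite the P stalk, had 838, 917 and 836 CPM in DMSO and 412 and 403 CPM in 5-FU libraries. In *KO* cells it had 788, 847 and 870 CPM in DMSO and 342, 350 and 328 CPM in 5-FU libraries. Every 5-FU library was thus below every DMSO library, and the log2 fold change was -1.08 ± 0.061 (FDR = 2.7e-10) in *WT* and -1.30 ± 0.053 (FDR = 5.5e-12) in *KO* cells. *RPL3*, which lines the entry to the peptidyl transferase center, had 2778, 2821 and 2831 CPM in *WT* DMSO and 1435 and 1447 CPM in *WT* 5-FU libraries. The values were 2770, 3002 and 3034 CPM and 1502, 1504 and 1517 CPM in *KO* cells. It fell by 0.96 on the log2 scale in both genotypes (FDR = 3.2e-11 in *WT* and 5.8e-12 in *KO* cells), and the responses differed by 0.0021 ± 0.059 (FDR = 0.99). *RPL12*, at the base of the P stalk, had 1348, 1537 and 1318 CPM in *WT* DMSO and 962 and 921 CPM in *WT* 5-FU libraries, without overlap. Its log2 fold change was -0.57 ± 0.064 (FDR = 1e-06).

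*RPL5*, the 5S RNA partner that binds MDM2, fell from 1200 ± 29.1 (SD, n = 3) to 904 ± 64.7 (SD, n = 2) CPM in *WT* cells, a log2 fold change of -0.41 ± 0.051 (FDR = 3.9e-06). *RPL23*, another MDM2-binding protein, had 692, 766 and 681 CPM in DMSO and 520 and 569 CPM in 5-FU libraries and fell by 0.39 on the log2 scale (FDR = 0.00016). *RPL11*, which binds MDM2 next to RPL5, was at 830 ± 110 (SD, n = 3) CPM in DMSO and 810 ± 52.4 (SD, n = 2) CPM in 5-FU libraries. Its log2 fold change of -0.035 ± 0.11 (FDR = 0.80) did not pass. Of the mRNAs that rose, *RPS19*, the gene most often mutated in Diamond-Blackfan anemia, had 603, 689 and 589 CPM in DMSO and 994 and 830 CPM in 5-FU libraries, with no overlap and a log2 fold change of 0.54 ± 0.098 (FDR = 0.00017). The smallest falls that were called were those of *RPL4* (-0.13 ± 0.045, FDR = 0.024), *RPL15* (-0.13 ± 0.048, FDR = 0.030) and *RPS3* (-0.13 ± 0.050, FDR = 0.037). *RPL4* lost its call without *WT* DMSO replicate 2, *RPL15* without *WT* 5-FU replicate 3 or *WT* DMSO replicate 1 or 3, and *RPS3* without any 1 of the 3 *KO* 5-FU libraries, *WT* 5-FU replicate 3 or *WT* DMSO replicate 1 or 2 (FDR up to 0.13). All 3 also missed the threshold with total counts or without a filter (FDR up to 0.096).

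In *KO* cells nearly all ribosomal protein mRNAs fell. Here 74 of 77 were lower after 5-FU (96.1%) and 0 higher, beside 33.8 and 26.6% of all genes. The median log2 fold change was -0.43, a fall by 25.7%, against -0.059 for all genes. Of the other genes of at least 100 CPM 48.2% fell, and of the short ones among them 55.8% (medians -0.12 and -0.19). The 28 members that fell in *WT* cells all fell here, and 45 members that were not called in *WT* cells did as well. The 3 members that did not pass were *RPS19*, *RPS4X* and *RPL36*, named for not passing. Among all 16123 genes, 25.2% passed a fold change of 1.5 in either direction, and 1932 were lower by it. The members that passed it were 12, all lower. This count was 21 without *KO* 5-FU replicate 2 and 24 without *KO* DMSO replicate 1. Without 1 library, 70 to 75 members fell.

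After *RPL10A* and *RPL3*, the largest falls in *KO* cells were those of *RPL12* (-0.85 ± 0.057, FDR = 2.1e-09), *RPS9*, a primary binder of 18S ribosomal RNA (-0.76 ± 0.052, FDR = 2.7e-09), and *RPL38* (-0.75 ± 0.16, FDR = 0.00082). *RPL12* had 1596, 1684 and 1742 CPM in DMSO and 933, 960 and 896 CPM in 5-FU libraries. *RPS9* had 897, 985 and 979 CPM in DMSO and 570, 542 and 578 CPM in 5-FU libraries, far apart, whereas *RPL38* had 278, 385 and 435 CPM and 226, 255 and 172 CPM, with more spread in both groups. In *WT* cells *RPS9* was at -0.37 ± 0.058 (FDR = 3.6e-05) and *RPL38* at -0.033 ± 0.18 (FDR = 0.89). Among the smallest falls without overlap between libraries were those of *RPLP0* (-0.14 ± 0.042, FDR = 0.0070), *RPSA* (-0.18 ± 0.045, FDR = 0.0020), *RPS3A* (-0.24 ± 0.050, FDR = 0.00071) and *RPS10* (-0.25 ± 0.062, FDR = 0.0024). *RPLP0* lost its call with total counts (-0.056, FDR = 0.20), DESeq2 (-0.091, FDR = 0.075) or no filter (-0.11, FDR = 0.053). *RPLP1* and *RPLP2*, the acidic proteins of the P stalk, both fell by 0.31, *RPS6*, the substrate of S6 kinase, by 0.34, *RPL22* by 0.59 and *RPS27A*, a ubiquitin fusion, by 0.48. *RPLP2* lost its call without *KO* 5-FU replicate 3 (-0.22, FDR = 0.058) or DMSO replicate 3 (-0.23, FDR = 0.060), and with DESeq2 (-0.25, FDR = 0.054). *RPS27* fell from 358 ± 69.5 (SD, n = 3) to 251 ± 63.1 (SD, n = 3) CPM (-0.51 ± 0.18, FDR = 0.022), with libraries that overlapped. The call was lost without *KO* 5-FU replicate 3 (FDR = 0.12) or DMSO replicate 2 (FDR = 0.060) or 3 (FDR = 0.11), and with DESeq2 (FDR = 0.11). *RPL5* fell to 788 ± 4.97 (SD, n = 3) CPM (-0.50 ± 0.046, FDR = 9e-08) and *RPL11* to 630 ± 50 (SD, n = 3) CPM (-0.38 ± 0.099, FDR = 0.0032).

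The responses themselves were compared as the interaction of genotype and treatment. For 43 of 77 members (55.8%) the response was more negative in *KO* cells and for 0 less negative, beside 16.0 and 10.1% of all genes. The median interaction was -0.31, against -0.095 for all genes. It was more negative for 20.3% of the other genes of at least 100 CPM and 25.9% of the short ones among them (medians -0.036 and -0.060). The count of 43 varied with single libraries. It was 19 without *KO* DMSO replicate 3, 21 without *KO* DMSO replicate 2 and 23 without *KO* 5-FU replicate 3. It was 20 without *WT* 5-FU replicate 2, 21 without *WT* DMSO replicate 1 or 3 and at most 63. With DESeq2 it was 24 and with TMM scaling 26. The median stayed between -0.38 and -0.26 without any 1 library. A difference above 1.5-fold was reached by 4 members, all lower, beside 10.1% of all genes in either direction and 1073 of 16123 lower. This difference was reached by 9, 10 and 12 members without *KO* 5-FU replicate 2, *KO* DMSO replicate 1 and *WT* DMSO replicate 2. It was reached by 2 without *KO* 5-FU replicate 3, *KO* DMSO replicate 2 or *WT* DMSO replicate 1 or 3, and by 1 without *KO* DMSO replicate 3 or *WT* 5-FU replicate 2.

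The most negative interactions were those of *RPS28*, *RPL38* and *RPS21*, which encode some of the smallest ribosomal proteins. *RPS28* had 120, 152 and 124 CPM in *WT* DMSO and 186 and 134 CPM in *WT* 5-FU libraries, and 125, 196 and 209 CPM in *KO* DMSO and 120, 139 and 98.5 CPM in *KO* 5-FU libraries. The libraries of both treatments overlapped in each genotype, and the interaction was -0.85 ± 0.24 (FDR = 0.018); it was lost without *KO* DMSO replicate 3 (-0.71, FDR = 0.054) or *WT* 5-FU replicate 2 (-0.59, FDR = 0.11), and with DESeq2 (-0.77, FDR = 0.076). *RPS21* had 207, 265 and 208 CPM and 266 and 249 CPM in *WT* cells, and 192, 275 and 273 CPM and 185, 183 and 148 CPM in *KO* cells, an interaction of -0.71 ± 0.18 (FDR = 0.010). *RPL38* stayed at 350 ± 74.5 (SD, n = 3) and 342 ± 37.9 (SD, n = 2) CPM in *WT* cells and went from 366 ± 80.1 (SD, n = 3) to 218 ± 42.4 (SD, n = 3) CPM in *KO* cells. Its interaction of -0.72 ± 0.24 (FDR = 0.038) was lost with DESeq2 (FDR = 0.15) and without 7 of the 11 libraries (FDR up to 0.13). These were *KO* 5-FU replicates 1 and 3, *KO* DMSO replicates 2 and 3, *WT* 5-FU replicate 2 and *WT* DMSO replicates 1 and 3. *RPLP2* (-0.51 ± 0.14, FDR = 0.013), *RPLP1* (-0.33 ± 0.099, FDR = 0.021), *RPSA* (-0.25 ± 0.067, FDR = 0.012) and *RPL8* (-0.32 ± 0.094, FDR = 0.020) were called as well. Of these, *RPSA* kept its call without each library. *RPLP2*, *RPLP1* and *RPL8* lost theirs without *WT* 5-FU replicate 2, *RPLP1* and *RPL8* also without *KO* DMSO replicate 2 or 3 or *WT* DMSO replicate 1 or 3, and *RPLP1* without *KO* 5-FU replicate 3 (FDR up to 0.097). *RPLP2* also lost its call with DESeq2 (FDR = 0.055). Among the least negative interactions that were called were those of *RPL15* (-0.19 ± 0.064, FDR = 0.035) and *RPL7A* (-0.18 ± 0.064, FDR = 0.047). Both calls were lost without *KO* 5-FU replicate 2 or 3, *KO* DMSO replicate 2 or 3 or *WT* DMSO replicate 1 or 3, also without *KO* 5-FU replicate 1, and that of *RPL7A* without *WT* 5-FU replicate 2 (FDR up to 0.11). Both were also lost with total counts, TMM scaling, DESeq2 or no filter (FDR up to 0.25). *RPL5* (-0.092 ± 0.068, FDR = 0.34), *RPL11* (-0.35 ± 0.15, FDR = 0.094), *RPLP0* (-0.16 ± 0.062, FDR = 0.062) and *RPS6* (-0.14 ± 0.069, FDR = 0.15) did not pass. Nor did *RPL22* (-0.28 ± 0.11, FDR = 0.072), *RPS27A* (-0.18 ± 0.10, FDR = 0.23) and *RPS27* (-0.57 ± 0.27, FDR = 0.13).

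The interaction differed between classes of coding length. Its median was -0.46 over the 25 members with a coding length under 400 bases, -0.30 over the 38 from there to under 700 bases and -0.15 over the 14 with 700 bases or more. In these classes 13, 25 and 5 members were called lower, and the median SE was 0.16, 0.094 and 0.068. Over other genes of at least 100 CPM, the medians were -0.23 (83 genes), -0.057 (283) and -0.029 (1843) in the same classes, so that the members lay lower in each. Of these other genes, 32, 71 and 345 were called lower. The libraries of a group also deviated by length. *WT* DMSO replicate 2 was above its group by a median of 0.17 for the shortest members and 0.064 for the longest, and by 0.082 for other genes of the shortest class. *KO* DMSO replicate 1 deviated by -0.22 for the shortest and -0.044 for the longest members and by -0.088 for the other short genes. *KO* 5-FU replicate 3 deviated by -0.21 for the shortest and 0.0025 for the longest members and by -0.052 for the other short genes. The part of this deviation in the interaction was not tested.

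Without 5-FU, few members differed between the genotypes. Under DMSO, 5 of 77 members were higher and 3 lower in *KO* than in *WT* cells (6.49 and 3.90%), beside 24.5 and 21.9% of all genes, and the median was -0.014 (0.026 for all genes). With TMM scaling, 5 were higher and 9 lower, with total counts 10 and 3, and with DESeq2 4 and 14. *RPL8* alone passed the fold change of 1.5, beside 14.1% of all genes in either direction. It fell short of this limit without *KO* DMSO replicate 1 (-0.55) or *WT* DMSO replicate 2 (-0.57). The count of higher members was 12 without *KO* DMSO replicate 1, 11 without *WT* DMSO replicate 2, 9 and 8 without *WT* 5-FU replicates 2 and 3, and 3 without *KO* DMSO replicate 2 or 3 or *WT* DMSO replicate 1 or 3. That of lower members was 8 without *KO* DMSO replicate 3 or *WT* 5-FU replicate 2 or 3, 6 without *WT* DMSO replicate 3 and 5 without *KO* 5-FU replicate 3.

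Under 5-FU, in contrast, 67 of 77 members were lower in *KO* cells and 1 was higher (87.0 and 1.30%), beside 28.0 and 21.6% of all genes; the median was -0.32 (-0.046 for all genes). Of the other genes of at least 100 CPM 37.5% were lower, and of the short ones among them 46.5%. Of the 67, 64 had not been called in DMSO, where 69 of all 77 members were not called. With the 2 *WT* 5-FU libraries kept, 55 to 69 members were lower without 1 other library. Among all 16123 genes, 18.1% passed a fold change of 1.5 in either direction, and 1702 were lower by it. The members that passed it were 3, all lower. This count was 1 without *WT* 5-FU replicate 2 or *KO* 5-FU replicate 3, and 5, 7 and 9 without *KO* 5-FU replicates 1 and 2 and *WT* 5-FU replicate 3. Below *RPL8*, the lowest values were those of *RPL38* (-0.65 ± 0.18, FDR = 0.0065), *RPS21* (-0.59 ± 0.14, FDR = 0.0020), *RPS29* (-0.57 ± 0.17, FDR = 0.0093) and *RPS27* (-0.57 ± 0.20, FDR = 0.026). Without *WT* 5-FU replicate 2, *RPL38* was at -0.53 (FDR = 0.065), *RPS29* at -0.46 (FDR = 0.086) and *RPS27* at -0.39 (FDR = 0.21). *RPS27* also lost its call without *KO* 5-FU replicate 1 (FDR = 0.054) or 3 (FDR = 0.11). With DESeq2, *RPS29* (FDR = 0.056) and *RPS27* (FDR = 0.13) were not called. *RPL22* (-0.46 ± 0.081, FDR = 0.00021), *RPLP2* (-0.48 ± 0.10, FDR = 0.00095), *RPLP1* (-0.39 ± 0.073, FDR = 0.00037) and *RPSA* (-0.26 ± 0.050, FDR = 0.00044) were lower too, as were *RPS6* (-0.21 ± 0.052, FDR = 0.0032) and *RPL5* (-0.20 ± 0.051, FDR = 0.0041). Among the smallest differences that were called stood *RPLP0* (-0.12 ± 0.046, FDR = 0.040), *RPL4* (-0.15 ± 0.045, FDR = 0.012), *RPS4X* (-0.16 ± 0.052, FDR = 0.019) and *RPS3A* (-0.16 ± 0.056, FDR = 0.023). All 4 missed the threshold with total counts, TMM scaling or DESeq2. *RPLP0* also lost its call without *KO* 5-FU replicate 1, 2 or 3, *KO* DMSO replicate 2, *WT* 5-FU replicate 2 or *WT* DMSO replicate 1 (FDR up to 0.13). *RPS3A* lost it without *KO* 5-FU replicate 2 or 3 or *WT* 5-FU replicate 3 (FDR up to 0.27). *RPL11* (-0.36 ± 0.11, FDR = 0.012) lost it without *KO* 5-FU replicate 3 or *WT* 5-FU replicate 2 (FDR up to 0.090), and with DESeq2 (FDR = 0.064). *RPS27A* (-0.23 ± 0.078, FDR = 0.023) lost it without *KO* 5-FU replicate 3 or *WT* 5-FU replicate 3 (FDR up to 0.11), and with total counts (FDR = 0.095). So did *RPL5* with total counts (FDR = 0.057).

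The members that differed between the genotypes in DMSO lay in part among genes that differed alike. Coordinates are those of GENCODE release 44 (GRCh38), and neighbors are the 20 tested genes on each side. *RPL8* (chromosome 8, 144789765 to 144792587, minus strand), near the end of the long arm, had 2535, 2776 and 2519 CPM in *WT* and 1551, 1765 and 1791 CPM in *KO* DMSO libraries. In 5-FU it had 2777 and 2359 CPM in *WT* and 1325, 1356 and 1346 CPM in *KO* libraries. The log2 difference was -0.62 ± 0.063 (FDR = 7.8e-07) in DMSO and -0.94 ± 0.069 (FDR = 2.4e-08) in 5-FU, with no overlap under either treatment. The median over its 26 neighbors was -0.43 in DMSO and -0.67 in 5-FU, and 23 of the 26 were below 0 in DMSO. *RPL7A* (chromosome 9, 133348218 to 133351426, plus strand), the host of several snoRNAs, had 1836, 1894 and 1723 CPM in *WT* and 2586, 2693 and 2698 CPM in *KO* DMSO libraries, and remained higher in 5-FU (1606 and 1499 against 1999, 2007 and 1996 CPM). Its log2 differences of 0.55 ± 0.043 (FDR = 4.1e-08) and 0.37 ± 0.048 (FDR = 1.3e-05) stood beside medians of 0.59 and 0.55 for its 40 neighbors, of which 39 were above 0 in DMSO.

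*RPL30* (chromosome 8, 98024851 to 98046469, minus strand) had 678, 768 and 639 CPM in *WT* and 800, 931 and 1015 CPM in *KO* DMSO libraries, without overlap. It was higher by 0.40 ± 0.086 (FDR = 0.0013), beside a median of 0.29 for its neighbors. *RPL12* (chromosome 9, 127447674 to 127451406, minus strand) was higher by 0.26 ± 0.056 (FDR = 0.0014), beside 0.23. In 5-FU these 2 were at -0.060 (FDR = 0.63) and -0.018 (FDR = 0.84), with neighbors at 0.37 and 0.20. Each of these 4 genes thus stood below its neighbors in 5-FU, as did nearly all other members. No such shift of neighbors stood beside *RPS28* (chromosome 19, 8321158 to 8323340, plus strand), higher by 0.43 ± 0.16 (FDR = 0.043) with libraries that overlapped and neighbors at 0.0052. The same held for *RPL14* (chromosome 3, 40457292 to 40468587, plus strand), at 1137, 1304 and 1126 CPM in *WT* and 943, 1021 and 1023 CPM in *KO* DMSO libraries. Its difference was -0.26 ± 0.057 (FDR = 0.0017) with neighbors at -0.0053. *RPL13* (0.18 ± 0.063, FDR = 0.030) and *RPS3A* (-0.16 ± 0.050, FDR = 0.018) completed the 8. The call of *RPL13* was lost without *KO* DMSO replicate 2 or 3 or *WT* DMSO replicate 1 or 3 (0.13 to 0.18), and that of *RPS3A* without *KO* DMSO replicate 1 or 2 or *WT* DMSO replicate 2 (-0.14 to -0.13).

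The members were also grouped by role, to be read beside all genes, of which 28.3% fell in *WT* and 33.8% in *KO* cells, and the other genes of at least 100 CPM, with 44.7 and 48.2%. Over the 77 members the shares were 36.4 and 96.1% (medians -0.081 and -0.43). A list that fell wholly in *KO* cells therefore does not stand out among the members. Of the 12 proteins reported to bind MDM2, 7 fell in *WT* and 12 in *KO* cells after 5-FU (medians -0.22 and -0.50). Of 18 genes mutated in Diamond-Blackfan anemia, 7 fell and 1 rose in *WT* and 17 fell in *KO* cells (-0.12 and -0.49); the share of 38.9% in *WT* cells lay between those of all and of abundant genes. Of the 8 proteins that line or surround the exit tunnel, 5 fell in *WT* and 8 in *KO* cells (-0.17 and -0.52). The stalk list, *RPLP0*, *RPLP1*, *RPLP2* and *RPL12* with the assembly factor *MRTO4*, had 2 and 5 that fell (0.021 and -0.31). Of 24 hosts of snoRNAs, 9 fell in *WT*, likewise between them (37.5%), and 24 in *KO* cells (-0.091 and -0.39). The medians of the large and small subunit were -0.071 and -0.12 in *WT* and -0.42 and -0.43 in *KO* cells. Of 8 genes of the 5S particle and its MDM2 axis, 4 fell and 3 rose in *WT* cells (-0.14). In *KO* cells 3 fell and 2 rose (-0.063). This list also holds genes outside the 77, such as *RRS1*, *RPF2* and *MDM2*, which itself rose in both genotypes. Its members *RPL5* and *RPL11* both fell in *KO* cells. These lists share members, so their counts are not independent.

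Paralogs outside the 77 are given beside the genes they resemble; of 8 listed, 5 had enough counts. *RPL22L1*, the paralog of *RPL22*, had 202, 236 and 205 CPM in *WT* DMSO and 23.7 and 28.1 CPM in *WT* 5-FU libraries. In *KO* cells it had 145, 157 and 180 CPM and 26.0, 26.3 and 23.0 CPM. All 5-FU libraries lay far below all DMSO libraries, with log2 fold changes of -3.05 ± 0.11 (FDR = 8.4e-13) and -2.68 ± 0.092 (FDR = 6.3e-13). *RPL22* itself was at -0.31 ± 0.082 (FDR = 0.0038) and -0.59 ± 0.073 (FDR = 3.4e-06). *RPS27L* went the opposite way, from 62.3, 74.7 and 59.7 to 222 and 218 CPM in *WT* and from 73.8, 78.9 and 87.3 to 192, 195 and 167 CPM in *KO* cells. It rose by 1.75 ± 0.088 (FDR = 7.2e-11) and 1.21 ± 0.081 (FDR = 2.3e-09), with an interaction of -0.55 ± 0.12 (FDR = 0.0035), while *RPS27* was at 0.060 ± 0.20 (FDR = 0.81) in *WT* cells. *RPL36AL* fell in both genotypes, with log2 fold changes of -0.46 ± 0.092 (FDR = 0.0004) and -0.67 ± 0.082 (FDR = 2.7e-06). *RPL26L1* fell in *KO* cells (-0.25 ± 0.076, FDR = 0.0088) and was at -0.14 ± 0.081 (FDR = 0.14) in *WT* cells. *RPL7L1* was at -0.14 ± 0.059 (FDR = 0.054) and 0.035 ± 0.053 (FDR = 0.59). *RPL3L*, *RPL10L* and *RPL39L*, known from muscle and testis, had at most 15, 0 and 1 counts in any library.

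*FAU*, which encodes RPS30 fused to a ubiquitin-like protein and does not match the symbol rule, was at 0.25 ± 0.11 (FDR = 0.070) in *WT* and -0.13 ± 0.10 (FDR = 0.29) in *KO* cells and did not pass in either. *MDM2* rose from 141 ± 5.95 (SD, n = 3) to 1119 ± 160 (SD, n = 2) CPM in *WT* and from 192 ± 3.97 (SD, n = 3) to 811 ± 15.6 (SD, n = 3) CPM in *KO* cells. The log2 fold changes were 2.99 ± 0.071 (FDR = 1.1e-14) and 2.08 ± 0.065 (FDR = 2.6e-13), and the interaction was -0.92 ± 0.094 (FDR = 4.8e-06).

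Other TOP mRNAs and genes linked to ribosomes were compared from lists, beside the same shares of all genes. Of these, 28.3% fell and 31.9% rose in *WT* cells, and 33.8% fell and 26.6% rose in *KO* cells. The list of 23 further TOP mRNAs also holds genes outside translation. Of the 23, 14 fell and 2 rose in *WT* cells (median -0.26) and 20 fell and 0 rose in *KO* cells (-0.36). Among them *EEF1A1*, the elongation factor that delivers tRNAs, fell in both, with values of -0.43 ± 0.041 (FDR = 1.4e-07) and -0.57 ± 0.036 (FDR = 1.1e-09). *EEF2*, the translocation factor, was at 0.082 ± 0.056 (FDR = 0.22) and -0.18 ± 0.051 (FDR = 0.0053), the latter not called with total counts (-0.095, FDR = 0.11). In the interaction 7 of the 23 were lower and 0 higher (median -0.14). The 30.4% that were lower stood beside 16.0% of all genes and 20.3% of other abundant genes. Of 78 mitochondrial ribosomal protein genes, which serve a separate ribosome, 36 fell and 4 rose in *WT* and 50 fell and 5 rose in *KO* cells (medians -0.17 and -0.25), and 12 were lower and 1 higher in the interaction (-0.072). The 46.2% that fell in *WT* cells were close to the share of other abundant genes, and the 15.4% lower in the interaction close to the 16.0% of all genes. In DMSO, 38 of these 78 were lower (48.7%) and 2 higher in *KO* cells (-0.17), where 3 and 5 of the 77 cytoplasmic members were. Lower there were 21.9% of all genes and 36.1% of the other genes of at least 100 CPM. Under 5-FU, 52 of the 78 were lower in *KO* cells (66.7%) and 3 higher (median -0.28). This stood beside 67 and 1 of the 77 members (median -0.32). Lower under 5-FU were 28.0% of all genes and 37.5% of the other abundant genes. Of 20 chaperones and assembly factors, 9 fell and 3 rose in *WT*, and 9 fell and 5 rose in *KO* cells. The 45% that fell in each genotype were close to the shares of other abundant genes (44.7 and 48.2%). In the interaction 3 of the 20 were higher (15%, beside 10.1% of all genes) and 0 lower. Of 12 regulators of TOP mRNAs and S6 kinase, 6 fell and 4 rose in *WT* and 6 fell and 1 rose in *KO* cells. The 50% that fell in each genotype were also close to the shares of other abundant genes. *LARP1*, named after its values were seen, rose by 0.19 in *WT* (FDR = 0.0085) and fell by 0.17 in *KO* cells (FDR = 0.0069).

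The 5-FU comparisons and the interaction rested on the fit without a factor for unwanted variation. With 1 RUVg factor as covariate (edgeR), 0 of 77 members passed in either 5-FU comparison or in the interaction. At an unadjusted p under 0.05, 8 were lower in *WT* cells, 13 in *KO* cells and 11 in the interaction, and 0 were higher. The controls of that factor were the 11123 genes outside the 5000 with the lowest p-values for any difference between the 4 groups (edgeR). Since 5451 genes fell after 5-FU in *KO* cells alone, genes that responded to the drug were among the controls. Of the variance of the factor, 98.2% lay between the treatments, so that it cannot be separated from the effect of 5-FU. With the factor, 60 members were lower and 1 higher in *KO* cells under 5-FU. DESeq2, without such a factor, called 32 lower members in *WT* cells, 69 in *KO* cells and 24 in the interaction.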

How the data were processed

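RNA-Seq was performed on total RNA with random-primed cDNA. According to the study's methods, the authors mapped reads in CLC Genomics Workbench to GRCh38 (hg38) with ENSEMBL genes and deposited counts per gene without normalization; strand use and the ENSEMBL release are not given in the sources used here. Groups followed the sample titles. *WT* 5-FU replicate 1 was left out as a copy; the file headers number *WT* 5-FU replicates 2 and 3 as 1 and 2. Depth was 22831415 to 39064210 counts per library.

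Genes that reached 20 counts in any library were tested with edgeR 4.0.16 (R 4.3.3, glmQLFit and glmQLFTest, two-sided, biological coefficient of variation 6.72%), with upper-quartile factors, 1 model with a mean for each of 4 groups, and Benjamini-Hochberg adjustment over all genes; CPM are from these scaled totals. Calls were made at FDR < 0.05 and also with an absolute fold change above 1.5. The script was tested on simulated data. Annotated lengths, neighbors and 3′ untranslated regions came from the canonical transcripts of GENCODE release 44, and sequences from RefSeq. Alternatives were TMM, total counts, DESeq2 1.42.0, stricter and no filters, RUVg, pairs of groups alone, the copy kept, pseudogene counts added, a replicate block and omission of each library; the block by header numbers was chosen after seeing the data.

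The 77 genes and all lists were chosen with earlier results of these data known. Genes were named by rule: the 5 highest and 5 lowest log2 fold changes among called genes without overlap between the libraries, the 3 highest and 3 lowest called in the interaction, a fixed set (*RPL5*, *RPL11*, *RPLP0*, *RPLP1*, *RPLP2*, *RPSA*, *RPS27A*, *RPL22*, *RPS27*, *RPS6*, *RPL8*, *RPL7A*, the paralogs, *FAU*, *EEF1A1*, *EEF2* and *MDM2*) and the extremes of level per length. Some genes that these rules name are not reported here, though they stay in all fits and counts.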

Additional observations from a re-analysis of the deposited data

Results flagged for a closer look

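By the interaction of genotype and treatment (edgeR, FDR < 0.05), the responses of the 2 genotypes to 5-FU differed for 43 of the 77 ribosomal protein genes. All 43 had the more negative response in *KO* cells, beside 16.0% of all genes with a more and 10.1% with a less negative one. The count was 19 without *KO* DMSO replicate 3 and 24 with DESeq2. Among the genes named by rule, the members called were *RPS28* (-0.85), *RPL38* (-0.72), *RPS21* (-0.71), *RPLP2* (-0.51), *RPLP1* (-0.33), *RPL8* (-0.32), *RPSA* (-0.25), *RPL15* (-0.19) and *RPL7A* (-0.18), given as log2 differences of the responses. Of these, *RPS28*, *RPL38*, *RPLP1*, *RPL8*, *RPL15* and *RPL7A* lost their calls without *KO* DMSO replicate 3, and *RPLP2* lost its call with DESeq2. Outside the 77 genes, *MDM2* (-0.92), *RPS27L* (-0.55) and *EEF2* (-0.26) were more negative in *KO* cells. *EEF2* lost this call without *WT* 5-FU replicate 2 (-0.13, FDR = 0.061) or *KO* 5-FU replicate 1 (FDR = 0.055), with TMM scaling (FDR = 0.065) and with DESeq2 (FDR = 0.095). *RPL22L1* was less negative in *KO* cells (0.37, FDR = 0.049), and lost this call without 7 of the 11 libraries (*KO* 5-FU replicates 1 and 2, *KO* DMSO replicates 1 and 2, *WT* 5-FU replicate 2 and *WT* DMSO replicates 2 and 3; FDR up to 0.23).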

How the results depend on the processing

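The median over the 77 genes minus that of all genes in *KO* cells after 5-FU lay between -0.40 and -0.35 in all alternatives that kept every library except RUVg, which put it at -1.27; no scaling moved the median of all genes by 0.1. With the RUVg factor, 0 members rose and 0 fell in *WT* cells (median -1.07), 0 fell in *KO* cells (-1.26), 1 was higher and 1 lower in *KO* than in *WT* cells in DMSO (-0.15), and 0 were lower in the interaction. Signs turned with this factor in *WT* cells for *RPL5* (0.98), *RPL23* (0.45), *RPL4* (0.18), *RPS19* (-2.45), *RPS27A* (0.20) and *EEF1A1* (0.88), in *KO* cells for *RPS3A* (1.33), *RPLP0* (0.19), *RPL5* (0.73) and *EEF1A1* (0.59), and between genotypes in DMSO for *RPS3A* (0.13), *RPL13* (-0.25) and *EEF2* (-0.18). The factor lay almost wholly between the treatments and cannot be separated from the effect of 5-FU. With the copied library kept as *WT* 5-FU (edgeR), 0 rose and 0 fell in *WT* cells, where 1 and 17 had an unadjusted p under 0.05, 2 were higher in *KO* cells in DMSO and 4 were lower in the interaction; *RPS27L* (0.15) and *MDM2* (0.038) turned in the comparison of genotypes under 5-FU and *RPL22L1* (-1.35) in the interaction.

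In *KO* against *WT* cells in DMSO, 14 members were lower with DESeq2 or without a filter and 9 with TMM; 8 were higher with 20 counts required in every library, 10 with total counts, and 8 were higher and 8 lower with only these groups in the fit. Under 5-FU, 2 were higher with DESeq2 or total counts. In the interaction, 24 were lower with DESeq2 and 26 with TMM. In *WT* cells, 6 rose without a filter, 4 with total counts and 1 with only the groups compared. The median level per kilobase was 1502 by coding and 940 by transcript length. Causes were not tested.

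Replicate numbers did not pair the libraries (correlations of same-numbered deviations -0.091 to 0.078 by title and -0.15 to 0.044 by header number). With the replicate number as a block, 2 rose and 34 fell in *WT*, 74 fell in *KO* cells, 9 were higher in *KO* cells in DMSO and 41 lower in the interaction; with the header numbers as a block, 1 rose in *WT* cells and 30 were lower in the interaction.

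Without 1 library, the members that rose in *WT* cells numbered 1 to 9 and those that fell 20 to 32, with medians of -0.15 to -0.012; 70 to 75 fell in *KO* cells (-0.50 to -0.37). Between genotypes, 3 to 12 were higher and 2 to 8 lower in DMSO (-0.075 to 0.059), 1 higher and 50 to 69 lower in 5-FU (-0.39 to -0.28), and 19 to 63 lower in the interaction (-0.38 to -0.26). *WT* 5-FU rested on 2 libraries, and spread for a lone library was taken from the other groups.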
